A study of Mus musculus with 2 samples.

Results

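The genes described here encode the transporters that carry organic anions, organic cations and drugs across kidney cell membranes. They were taken by name: every gene whose symbol on the array begins with Slc22a, Slc47a, Slco or Abcc followed by the member's number was included, apart from 1 Slco gene that was not analysed here. This gave 50 genes of the 22180 that the array names unambiguously, namely 24 Slc22a, 2 Slc47a, 14 Slco and 10 Abcc genes. Probe sets shared by several genes were not assigned to any of them.

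Kidney RNA of male mice was compared between a wild-type group (Iah1-WT) and a group in which Iah1, which encodes an isoamyl acetate-hydrolysing esterase homolog, was knocked out in the whole body (Iah1-KO). All mice ate chow until 6 weeks of age and then a high-fat diet for 12 weeks, and all went without food for 4 hours before tissue was taken, so the values describe kidneys of briefly fasted, fat-fed males. There is no chow-fed group to set them against. RNA of 3 mice was pooled for each genotype and each pool was measured on 1 array. The spread between mice is therefore unknown, no test between genotypes is possible, and each difference below is a difference between 2 pools.

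The tubule cell that clears drugs, toxins and metabolic waste is the proximal tubule cell. On its blood side, organic anion transporters of the Slc22a family exchange a substrate for a dicarboxylate held at high concentration inside the cell, and organic cation transporters let cations in along the membrane voltage. On its urine side, Slc47a proteins exchange cations for protons, urate and anion exchangers return or release anions, and Abcc pumps use ATP to expel conjugates of glutathione, glucuronate and sulfate. The Slco proteins carry larger amphipathic anions such as bile salts, steroid sulfates, thyroid hormones and cardiac glycosides.

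Levels are given as log2 RMA values, the authors' background-corrected and quantile-normalized signal of a probe set, on which 1 unit is a doubling of signal. Probe sets differ in how well their probes bind, so the level of a gene is compared between the pools and not with the level of another gene. A gene was taken as measurable at this scale when its higher value was at least 6, the expression floor. Of the 50 transporter genes 26 reached the floor (52.0%), against 7671 of all 22180 genes (34.6%). The other 24 lay below it in both pools. Iah1 itself had a value of 9.09 on the wild-type array and 3.60 on the knockout array, so its signal goes with the genotype labels.

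The transporter genes differed little between the pools. Across the 26 genes at or above the floor, the Iah1-KO value minus the Iah1-WT value ran from -0.31 to 0.37, and 16 of the 26 differed by less than 0.10. The median size of the difference, with its sign ignored, was 0.08, beside 0.09 over all 7671 genes. With the sign kept, the median was 0.06 for the transporters and 0.01 for all genes. Of the 26, 19 were higher and 7 lower in the knockout pool, a share of 73.1% above 0 where 52.4% of all genes lay above 0.

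A difference of 1.2-fold (0.26 on the log2 scale) was used as a mark for the larger values. Slc22a17, Abcc1 and Slc22a23 were at least 1.2-fold higher in the knockout pool, which is 3 of 26 genes (11.5%), where 5.36% of all genes at or above the floor passed the same mark. Abcc5 alone was at least 1.2-fold lower, 1 of 26 (3.85%) beside 3.77% of all genes. At 1.5-fold the transporters gave 0 of 26, and 0.43% of all genes passed in either direction. Abcc1 reached the floor only on the knockout array and so was counted through its higher value there. Among the 25 transporters at or above the floor in both pools, 2 were at least 1.2-fold higher (8%), beside 3.98% of all genes with both values at or above it. These shares rest on 1 to 3 genes each and do not set the transporters apart from the background.

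**Figure D1:**
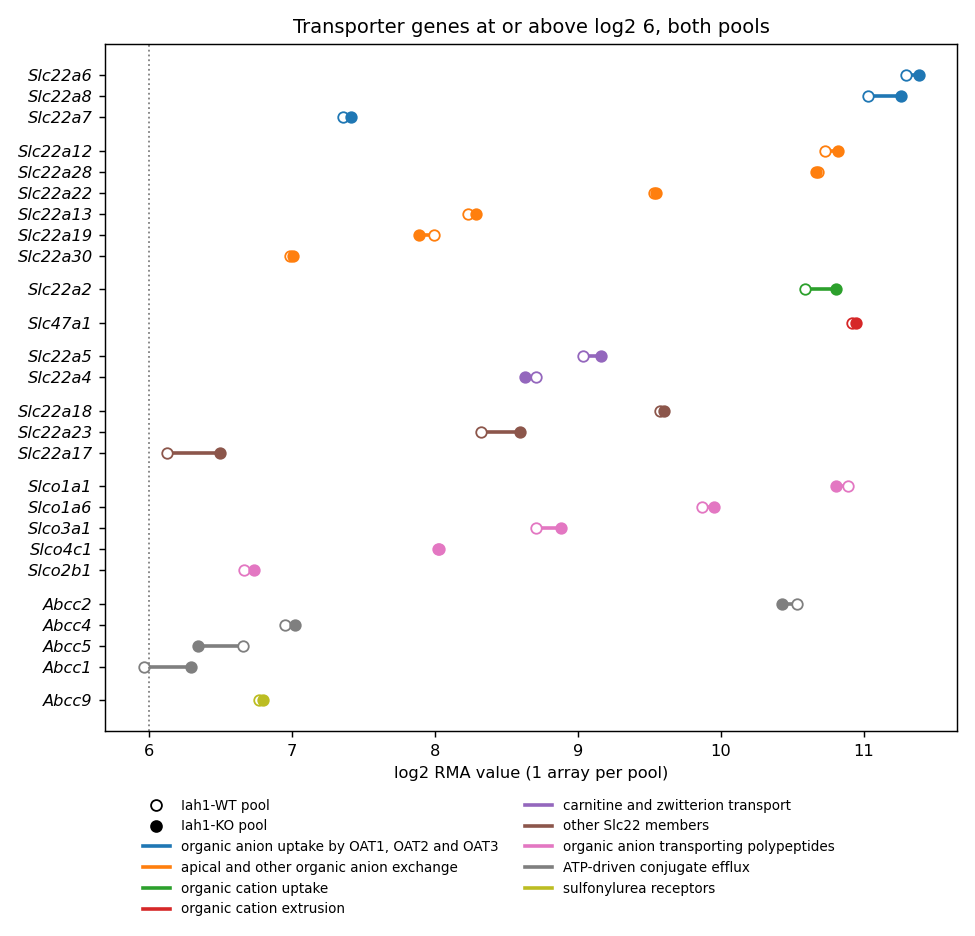
Log2 RMA values (horizontal axis) of the 26 transporter genes at or above the floor in the Iah1-WT pool (open circles) and the Iah1-KO pool (filled circles), 1 array each, grouped and coloured by transport class; the dotted line is the floor of 6. Most pairs of circles nearly touch, and the longest bars belong to Slc22a17, Abcc1, Abcc5, Slc22a23, Slc22a8 and Slc22a2.

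The organic anion transporters OAT1 and OAT3 take up drugs, uremic toxins and metabolites from the blood at the basolateral membrane. Slc22a6 (probe set 17357107), which encodes OAT1, the classical carrier of para-aminohippurate, was at 11.30 on the wild-type array and 11.38 on the knockout array, a difference of 0.09. Slc22a8 (probe set 17357092), which encodes OAT3, a carrier of estrone sulfate, penicillin-type antibiotics and many uremic solutes, was at 11.03 and 11.26. Its difference of 0.23, a 1.17-fold higher value in the knockout pool, fell short of the 1.2-fold mark. Slc22a7, the gene of OAT2, which carries cyclic nucleotides and urate and has been placed at the apical membrane in rodents, was at 7.36 and 7.42. All 3 genes had the higher value in the knockout pool, with differences of 0.06 to 0.23.

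How far a difference stands out depends on the level of the gene, because dim probe sets scatter more. A robust SD (the scaled median absolute deviation) was therefore taken over the 500 genes nearest in mean level. At the bright end of the ranking it was that of the 500 brightest genes, 0.10, as for Slc22a6, Slc22a8, Slc22a2 and Slc47a1. For such genes the spread near the level means this shared value. The robust SD ran from 0.09 to 0.18 for the 26 transporters, and it describes the spread over genes on these arrays, not the error of a replicate. The difference of Slc22a8 was 2.35 times this SD and ranked 553 of 7671 from the top. Slc22a6 reached 0.88 times and Slc22a7 0.40 times their own.

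Organic cations enter the proximal tubule cell through OCT2, the product of Slc22a2, a basolateral uniporter for creatinine, metformin and monoamines. Slc22a2 (probe set 17333292) was at 10.59 on the wild-type array and 10.81 on the knockout array. The difference of 0.22, or 1.16-fold, was 2.21 times the robust SD near its level and ranked 639 of 7671 from the top. The apical exit step is MATE1, the product of Slc47a1, which exchanges these cations for protons. Slc47a1 was at 10.92 and 10.95, a difference of 0.03 that lay within the spread near its level (0.31 times the robust SD). The uptake gene was thus higher in the knockout pool by more than that spread and the extrusion gene was not; whether these differences themselves differ could not be tested with 1 array per genotype.

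By a mark of 2 robust SDs in place of 1.2-fold, added after the values were seen, 4 transporters were higher in the knockout pool and 1 was lower. The higher ones were Slc22a23, Slc22a8, Slc22a17 and Slc22a2, 4 of 26 (15.4%), where 3.72% of all genes passed. The lower one was Abcc5, 1 of 26 (3.85%), where 2.79% passed. The 4 higher genes lay just past the mark, at 2.21 to 2.46 robust SDs. With so few genes and a mark chosen after their values were known, these shares do not set the transporters apart from the background. The 2 marks share Slc22a17, Slc22a23 and Abcc5. They part on Abcc1, which is dim (1.81 times the robust SD), and on Slc22a8 and Slc22a2, which are bright and just under 1.2-fold.

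**Figure D2:**
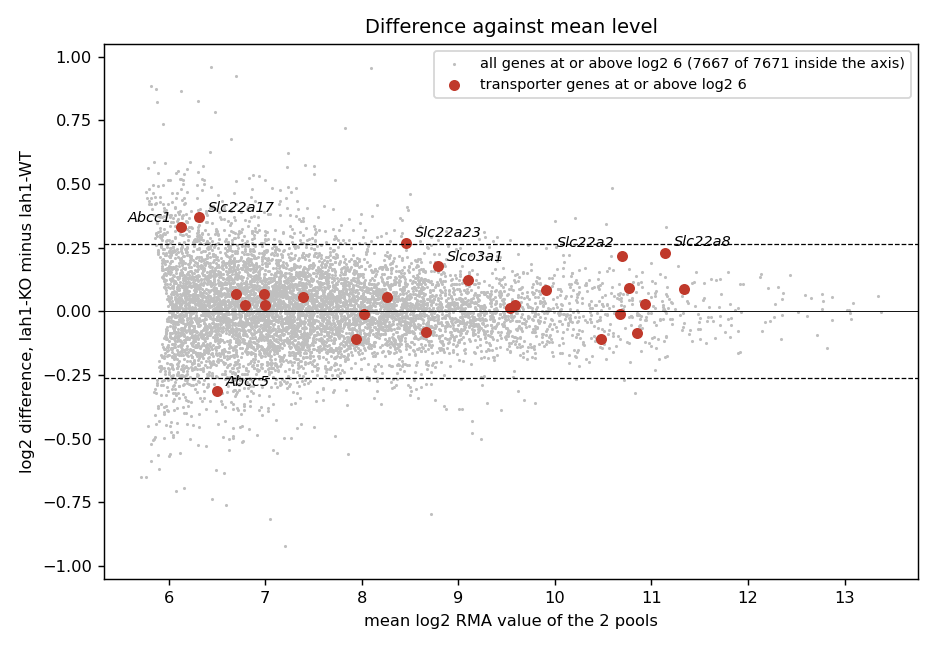
Log2 difference between the pools (Iah1-KO minus Iah1-WT, vertical axis) against the mean log2 RMA value of both (horizontal axis), for all genes at or above the floor (grey, 4 of the 7671 lie outside the axis) and the 26 transporter genes (red); dashed lines mark 1.2-fold. The grey cloud narrows with level, so Slc22a8 at 0.23 and Slc22a2 at 0.22 lie near its upper edge, while Slc22a17 at 0.37 and Abcc1 at 0.33 lie where it is wide.

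The urate and anion exchangers of the apical membrane and their relatives differed little. Slc22a12, the gene of URAT1, which reabsorbs urate, was at 10.73 on the wild-type array and 10.82 on the knockout array. Slc22a13, the gene of OAT10, which exchanges nicotinate and urate, was at 8.23 and 8.29. Slc22a22, the gene of the prostaglandin carrier OAT-PG, was at 9.53 and 9.55. These differences, 0.09, 0.06 and 0.01, were all smaller than the robust SD near each gene.

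Slc22a19, the gene of OAT5, an apical carrier of steroid sulfates, was at 7.99 and 7.89, a difference of -0.11. Slc22a28 was at 10.68 and 10.67, and Slc22a30 at 6.99 and 7.01; both encode organic anion transporter-like proteins. Over the 6 genes of this class at or above the floor, 4 were higher and 2 lower in the knockout pool, with a median difference of 0.02 and none past 1.2-fold.

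Carnitine, which fatty acids need to enter mitochondria, is recovered from the urine by OCTN2, the product of Slc22a5. Slc22a5 was at 9.04 on the wild-type array and 9.16 on the knockout array, a difference of 0.12, or 1.38 times the robust SD near its level. Slc22a4, the gene of the ergothioneine carrier OCTN1, was at 8.71 and 8.63, a difference of -0.08. The differences of these genes, which lie in the same cluster, thus had opposite signs, and neither reached 1.2-fold.

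The members of the Slc22a family without an established role in drug excretion included the transporter that was furthest higher in the knockout pool among the 26 at or above the floor. Slc22a17 (probe set 17306507), reported as a receptor for the iron-binding protein lipocalin-2, was at 6.13 on the wild-type array and 6.50 on the knockout array. Its difference of 0.37, or 1.29-fold, ranked 155 of 7671 from the top and was 2.22 times the robust SD of 0.17 near its level. Slc22a23 (probe set 17291787), an orphan member whose substrate is not settled, was at 8.33 and 8.60. Its difference of 0.27, or 1.21-fold, ranked 383 of 7671 and was 2.46 times the robust SD of 0.11. Centring all differences on the median of all genes took Slc22a23 just below the 1.2-fold mark and left 2 transporters past it on the higher side. Slc22a18, an imprinted gene of an organic cation transporter-like protein, was at 9.58 and 9.60. Slc22a23 lay just inside the mark of 1.2-fold, and Slc22a8, at 0.23, was the nearest gene outside it.

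The Slco transporters at or above the floor did not share a direction. Slco1a1, which encodes an apical carrier of steroid conjugates in the male mouse kidney, was at 10.89 on the wild-type array and 10.80 on the knockout array, a difference of -0.09. Its kidney-expressed paralog Slco1a6 was at 9.87 and 9.95, a difference of 0.08. Slco4c1, whose basolateral product takes up digoxin and thyroid hormone, was at 8.03 and 8.02. All 3 differences were smaller than the robust SD near each gene.

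Slco3a1, a carrier of prostaglandins and thyroid hormone, was at 8.70 and 8.88. Its difference of 0.18, or 1.13-fold, was the furthest from 0 among the Slco genes at or above the floor and 1.64 times the robust SD near its level. Slco2b1, a carrier of steroid sulfates and statins, was at 6.66 and 6.73. It is the only transporter of the 50 with more than 1 probe set, and the dimmer one, at 3.02 and 2.84, differed by -0.17. The mean of both probe sets was 4.84 and 4.79, below the floor, with a difference of -0.05, so the sign for Slco2b1 depends on the probe set used.

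Among the 4 Abcc pumps at or above the floor, 1 gene was past 1.2-fold in each direction. The shares of all genes at or above the floor were 5.36% higher and 3.77% lower. Counts of 1 gene do not set the pumps apart from these shares. Abcc5 (probe set 17329105), the gene of MRP5, an efflux pump for cyclic nucleotides and nucleotide analogs, was at 6.66 on the wild-type array and 6.34 on the knockout array. The difference of -0.31, a 1.24-fold lower value in the knockout pool, ranked 167 of 7671 from the bottom and was -2.12 times the robust SD of 0.15 near its level. Abcc1 (probe set 17323138), the gene of MRP1, a basolateral pump for glutathione conjugates and leukotrienes, was at 5.97 and 6.30. It reached the floor only on the knockout array and was counted through that higher value. Its difference of 0.33, or 1.26-fold, ranked 219 of 7671 from the top and stayed under 2 robust SDs, at 1.81.

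The apical pumps that serve urinary excretion differed less. Abcc2, the gene of MRP2, the apical exporter of glucuronide and glutathione conjugates, was at 10.53 and 10.43. The difference of -0.11 was -1.11 times the robust SD near its level. Abcc4, the gene of MRP4, which exports cyclic nucleotides, urate and antiviral drugs, was at 6.95 and 7.02, a difference of 0.07. Abcc9, which encodes the SUR2 subunit of ATP-sensitive potassium channels and transports no drug, was at 6.77 and 6.80. It shares only its name group with the pumps.

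**Figure D3:**
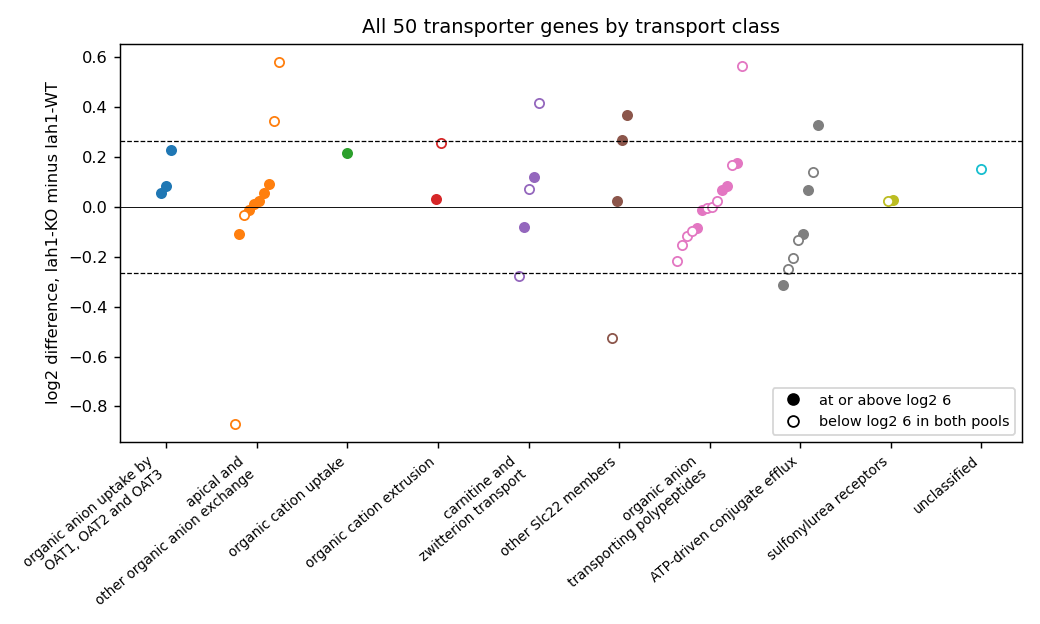
Log2 difference (Iah1-KO minus Iah1-WT, vertical axis) of all 50 transporter genes by transport class; filled points are genes at or above the floor, open points lie below it in both pools, and dashed lines mark 1.2-fold. Filled points stay between -0.31 and 0.37, while open points reach from -0.87 to 0.58.

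The 24 transporters below the floor scattered more widely than those above it. Their values ran from 2.04 to 5.93 and their differences from -0.87 to 0.58, with a median of 0.00, 12 above and 12 below 0. Of the 24, 16 did not lie above the array median (4.05 for Iah1-WT and 4.03 for Iah1-KO) in both pools, and their signal is not shown to be above background. Over all 14509 genes below the floor the differences had a robust SD of 0.24, beside 0.13 for the genes at or above it. The furthest were Slc22a20, at 3.89 and 3.02 and known from olfactory mucosa, Slc22a27, at 2.04 and 2.62, and Slco1b2, a hepatocyte carrier, at 2.53 and 3.10. All 3 were at or below the array median in both pools, and nothing is read from their differences.

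The dim members nearest the floor were Slc22a26 (5.93 and 5.89), Abcc10 (5.65 and 5.45), Slco4a1 (5.65 and 5.55) and Abcc6 (5.62 and 5.49). All 4 had the lower value in the knockout pool, with differences of -0.20 to -0.03. Each was smaller in size than the robust SD of 0.24 over genes below the floor, and nothing is read from the shared sign. Abcc6 exports ATP from hepatocytes and its loss causes ectopic calcification, and Slco4a1 carries thyroid hormone. Other dim genes above the array median in both pools were Slc22a15, Slc22a21, Abcc3 and Abcc8, with differences of 0.07, -0.28, 0.14 and 0.02. Abcc3 encodes MRP3, a basolateral conjugate pump of liver and gut, and Abcc8 the SUR1 subunit of pancreatic potassium channels. The remaining dim genes were Slc47a2, Slco1a4, Slco1a5, Slco1c1, Slco5a1, Slco6b1, Slco6c1, Slco6d1, Slc22a13b, Slc22a14, Slc22a16, Slc22a29 and Abcc12. Of the 50, 48 are protein-coding in RefSeq; Slc22a13b is a transcribed pseudogene and Slco6b1 a long non-coding RNA there, and both were dim.

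Many of these genes lie side by side in the genome, as arrays of duplicated copies. In the RefSeq annotation of GRCm38.p6, 19 pairs of transporter genes had at most 2 protein-coding genes between them. In 12 of the 19 pairs only 1 partner reached the floor, and in 3 both did. The longest run held Slc22a19, Slc22a26, Slc22a27, Slc22a28, Slc22a29, Slc22a30, Slc22a8 and Slc22a6 with no other protein-coding gene between them. Within it Slc22a28 was at 10.68 and 10.67 while its flanking genes Slc22a27 and Slc22a29 were below the array median, at 2.04 and 2.19 on the wild-type and 2.62 and 2.53 on the knockout array.

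At the end of that run, Slc22a8 and Slc22a6 are adjacent, and both were higher in the knockout pool, by 0.23 and 0.09. Slc47a1 was far above the floor in both pools while its neighbour Slc47a2 was at 3.88 and 4.14. Slco1a1 and Slco1a6 were at or above the floor, whereas Slco1a4 (4.01 and 4.18) and Slco1a5 (2.89 and 2.74) of the same cluster were not. The 3 pairs with both genes at or above the floor held no gene past 1.2-fold, so they cannot show whether neighbours pass the mark together. Recent copies are alike in sequence, and the probes that a gene shares with its paralogs are not known here, so the split of signal within these clusters is uncertain.

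The genes that supply and regulate this transport were described from 3 lists. The list of coupled ion gradients and dicarboxylate supply had 9 of 12 genes measured, all at or above the floor, of which 4 lay above and 5 below 0 (median difference -0.06). Car4, the membrane-bound carbonic anhydrase of the brush border, was at 9.36 on the wild-type array and 8.93 on the knockout array, 1.35-fold lower. It was the only 1 of the 9 past 1.2-fold. Of all genes at or above the floor, 5.36% were that much higher and 3.77% that much lower. A single gene in so short a list does not set it apart from these shares. Slc13a3, the basolateral dicarboxylate carrier that keeps the exchange of OAT1 and OAT3 running, was at 11.11 and 11.21. The scaffold gene Slc9a3r1 differed by -0.15 and the lactate carrier gene Slc5a12 by -0.14.

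Other drug and urate transporters had 23 of 24 genes measured. Of these, 14 were at or above the floor, 7 above and 7 below 0, with a median of 0.00. Slc29a1, the nucleoside carrier ENT1, reached the floor only on the knockout array, at 5.77 and 6.13, and was the only 1 of the 14 past 1.2-fold. Across all genes at or above the floor, 5.36% were higher by as much. Abcg2, an apical efflux pump for urate and drugs, was at 10.06 and 9.89, a difference of -0.18. Slc28a1 differed by 0.17 and the steroid carrier subunit gene Slc51a by -0.12.

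Transcriptional regulators of transporter genes had 15 of 18 genes measured. Of these, 10 were at or above the floor, 4 above and 6 below 0, and the median difference was -0.03. Bcl6, a transcriptional repressor, was at 7.62 and 8.57. It was the only 1 of the 10 past 1.2-fold, beside 5.36% of all genes at or above the floor higher by as much. The list was chosen with earlier results of these data known, so finding Bcl6 in it is no result of the list. Nr1h4, the bile acid receptor FXR, was at 8.98 and 8.72, a difference of -0.25. Hnf4a, a nuclear receptor of proximal tubule and liver identity, was at 10.69 and 10.85, a difference of 0.16, and the liver X receptor gene Nr1h3 differed by 0.16.

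Promoter windows were searched because of Bcl6, and this choice was made after its value was known. RefSeq windows of 300 bases (250 before to 50 after a gene's start, GRCm38.p6) were found for 40 of the 50 transporter genes, in 47 windows. The letters TTCCNNGAA, a core that BCL6 and STAT5 sites share, were searched on both strands, together with the HNF1 palindrome (GTTAAT and ATTAAC with any base between) and the HNF4 letters CAAAGTCCA. The first occurred in 9 of the 47 windows (19.1%) and in 4.81% of all 32851 windows. The HNF1 letters were in 0 of the 47 and in 0.00913% of all windows, and the HNF4 letters in 0 and in 0.475%. A match describes the letters and does not show a bound site, and no test was made of these shares.

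The transporter genes with the core were 4 of the 22 at or above the floor that had a window and 4 of the 18 below it. The 4 brighter ones did not share a direction: Abcc5 differed by -0.31, Slc22a19 by -0.11, Abcc4 by 0.07 and Slco2b1 by 0.07. Because Abcc5 is the furthest lower transporter among those at or above the floor, the 250 bases before its start are shown (chr16:20426395-20426644, minus strand, GRCm38.p6). Below it stand the core and 10 bases on each side for Slc22a19 (chr19:7711516-7711544), Abcc4 (chr14:118706199-118706227) and the 2 windows of Slco2b1 (chr7:99706811-99706839 and chr7:99695924-99695952), all on the minus strand. All are written 5′ to 3′ on the strand of the gene, with the match in capitals.
Abcc5: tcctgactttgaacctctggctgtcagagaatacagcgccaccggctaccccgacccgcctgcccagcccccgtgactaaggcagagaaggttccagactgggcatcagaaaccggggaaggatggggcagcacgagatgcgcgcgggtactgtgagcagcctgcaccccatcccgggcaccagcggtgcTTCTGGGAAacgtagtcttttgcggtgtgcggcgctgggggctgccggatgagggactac
Slc22a19: aaaaaaatacTTCCATGAAgtagaaaaat
Abcc4: cggcgcttggTTCCCGGAAgccgctgctt
Slco2b1, first window: atcagaggaaTTCATGGAAccaaagaaac
Slco2b1, second window: tactgagcctTTCCGGGAAtgagtgatca
In Abcc5 the match begins 60 bases before the annotated start. In Abcc4 it begins 2 bases after the start and in Slc22a19 it begins 224 bases before it.

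Markers of the cells that carry these transporters were set beside them. The proximal tubule list had 21 of its 22 genes measured, all at or above the floor, of which 6 lay above and 15 below 0 (median difference -0.05). Their differences ran from -0.45 for Ass1 (6.24 and 5.79) to 0.16 for Hnf4a. Ass1, which reached the floor only on the wild-type array, was the only 1 of the 21 past 1.2-fold. Of all genes at or above the floor, 3.77% were lower by as much. The summed signal of the 21 genes on the linear scale was 66322 on the wild-type array and 64838 on the knockout array, while that of the 50 transporters was 21037 and 21957. The defining genes Lrp2 (11.85 and 11.80), Cubn (10.43 and 10.37) and Slc34a1 (12.62 and 12.67) were far above the floor in both pools, as the kidney label requires. The proximal tubule markers therefore lay on balance slightly below 0 where the transporters lay slightly above it. In whole kidney, fewer cells of a type and less RNA per cell cannot be told apart.

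Among other cell types, the 8 endothelial markers had a median difference of 0.13, with 7 above 0. The 4 macrophage markers at or above the floor, Lyz2 (0.63), Cx3cr1 (0.41), Csf1r (0.11) and C1qb (-0.01), had a median of 0.26. Without Cx3cr1, which reached the floor only on the knockout array, it was 0.11, and the 3 dimmer macrophage markers ran from -0.73 to 0.04. The 8 principal cell markers had a median difference of 0.06, with 4 above and 4 below 0, from -0.12 for the sodium channel subunit gene Scnn1b to 0.57 for the water channel gene Aqp4. Their summed signal was 1584 on the wild-type array and 1692 on the knockout array, that of endothelial markers 2030 and 2151, and that of the 7 macrophage markers measured 581 and 627. The 6 loop of Henle markers at or above the floor all lay below 0 (median -0.11), while the dimmer Cldn16 was at 5.08 and 5.09. The 8 intercalated cell markers had a median of -0.10, with 3 above and 5 below 0. They ran from -0.81 for Atp6v1g3 to 0.28 for Kit. Of the hepatocyte list, 3 of 7 genes were at or above the floor, namely Alb, Apoa2 and Ttr at 0.40, 0.38 and -0.19, while the hepatocyte carrier Slco1b2 stayed below the array median. Adrenal, urothelial and lymphocyte markers had 0 genes at or above the floor. The part of these cell types in the differences of Slc22a17, Slc22a23, Abcc1 and Abcc5 was not tested.

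**Figure D4:**
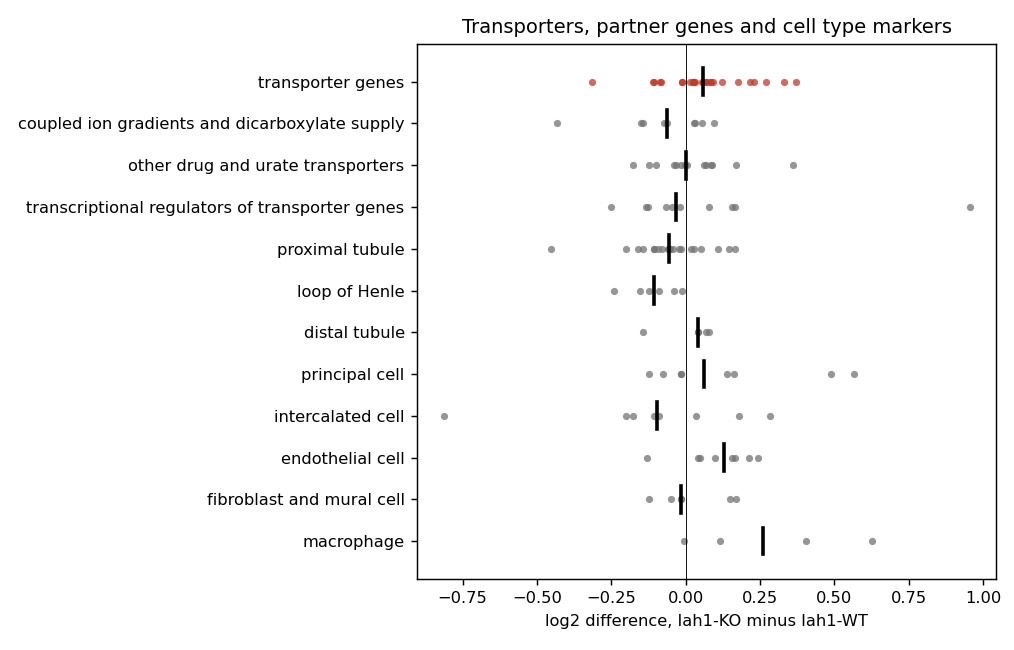
Log2 differences (Iah1-KO minus Iah1-WT, horizontal axis) of single genes at or above the floor (points) and their median (black bar) for the transporter genes (red), the 3 lists of partner genes and the cell type marker lists with at least 4 such genes. The transporter median is 0.06, the proximal tubule median is -0.05, and the furthest single gene is Bcl6 at 0.96.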

How the data were processed

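RNA was measured on 2 Affymetrix arrays, 1 per genotype, each from a pool of 3 mice per the series description. Per the submitters' processing notes, the authors ran RMA (Affymetrix Expression Console, version 1.3.0) to obtain the deposited log2 values. RMA equalises the distributions of the arrays, so a shift of most genes would not be visible, and it compresses differences of dim probe sets. The build behind the array annotation is not given in the sources.

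Of 41345 probe sets, 23521 carried exactly 1 gene symbol in GEO's platform annotation, 1814 several and 16010 none. All 50 transporter genes matched RefSeq (GRCm38.p6) by Entrez number, with unchanged symbols. The brightest probe set of a gene was used, and the difference is Iah1-KO minus Iah1-WT. Python 3.11.15, pandas 2.3.3, numpy 2.4.6 and statsmodels 0.14.6 were used.

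Every transporter at or above the floor was named; from each partner list the genes with the largest difference, up to 4, and below the floor the 3 furthest from 0 and those with a known role. Classes and lists were chosen with earlier results of these data known. The number of arrays limits the precision. Alternatives were other floors (5, 7 or none), the mean over probe sets, centring, and a loess correction (span 0.3).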

Additional observations from a re-analysis of the deposited data

How the results depend on the processing

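No paired analysis was possible because each genotype has 1 array and the labels give no replicate numbers; for the same reason no array could be left out. Centring, the loess correction and the mean over probe sets moved no count beyond 1.5 times, and moved the single transporters other than Slco2b1 by at most 0.031 (75 values). Slco2b1, the only one with 2 probe sets, changed sign with their mean (-0.05 against 0.07) and fell below the floor, which left 25 transporters. Centring took Slc22a23 below 1.2-fold, so that 2 were higher in place of 3. The floor of 6 mattered most. Lowering it to 5 gave 30 transporters and left the counts past 1.2-fold at 3 in the higher and 1 in the lower direction. The matching shares of all genes counted there were 7.53% and 6.11%. Raising it to 7 left 21 transporters, of which 1 (Slc22a23) was past 1.2-fold in the higher direction and 0 in the lower. The share of all genes past 1.2-fold at that floor was not taken. The median of the Slc22a members without an established role in excretion was 0.15 there, against 0.27 with the floor of 6. With no floor all 50 transporters counted, with 7 higher and 4 lower past 1.2-fold and 1 past 1.5-fold (the dim Slc22a20), where 10.3% of all genes were higher and 11.6% lower by 1.2-fold. Medians then were 0.15 for those Slc22a members and 0.14 for the Slc47a genes, against 0.27 and 0.03 with the floor of 6. A move was counted when it reached 0.11, the median robust SD near the transporters. The mark of 2 robust SDs and the values without Abcc1 or Cx3cr1 were added after the data were seen.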
